A study of Rattus norvegicus with 4 samples.

Results

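Solute carriers are membrane proteins that move amino acids, sugars, ions, metals, vitamins and metabolites across the plasma membrane and the membranes of organelles. They were examined in m6A-seq of neonatal rat cardiac fibroblasts (CFs), primary cells from Sprague-Dawley rats no older than 3 days, which received either an empty plasmid (Vector) or a plasmid with rat FTO cDNA (FTO) and were collected 48 h later. FTO is a demethylase that removes the methyl group of m6A. The labels describe the Vector cells as WT and the other cells as FTO overexpression. Each group had 1 m6A-IP library and 1 input library, from which the authors deposited 1 list of peaks, a peak being a stretch of RNA where the immunoprecipitated fragments exceeded the input. The members were chosen by symbol (Slc, a number, the letter a and a number) and selected on having at least 1 listed peak in either group, so that having a peak is no finding. They were 123 genes out of 8729 with a peak in either list, and 123 out of 338 solute carrier symbols of this form in RefSeq.

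Fibroblasts that build matrix take up glucose, glutamine and other amino acids, exchange ions to hold their volume and pH, and import metabolites into mitochondria, and each of these steps is served by a numbered solute carrier family. m6A lies mostly in long exons and near the stop codon of mRNAs, where reader proteins bind it and change the stability or the translation of the transcript. A listed peak therefore marks a transcript that was present and methylated enough to be detected. A transcript without a listed peak may still be expressed or methylated below the threshold of the list.

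The lists give for each peak a length in bp, a transcript and a gene ID. They give no positions, and heights and enrichment were not used here. Depth is unknown, no interval for depth can be given, and since each group has 1 pair of libraries, differences between the lists stand without a check by replicates and carry no p-value. The Vector list was the longer by 1.194 times, with 21249 peaks against 17796. Fto itself had 3 Vector peaks and 9 FTO peaks. The plasmid of the FTO group holds rat FTO cDNA, and the part of plasmid transcripts in these peaks was not tested. Of 8 fibroblast markers 7 had a listed peak, with 15 Vector peaks and 11 FTO peaks in all, and Vim was at 0 in both lists. Peaks were also listed for 5 of 6 cardiomyocyte markers (22 and 24 peaks, Ttn at 0), for 3 of 3 macrophage markers (12 and 9), for 1 of 2 smooth muscle markers (17 and 15, Cnn1 at 0) and for 1 of 4 endothelial markers (0 and 2, with Pecam1, Cdh5 and Kdr at 0). The part of these other cells in the solute carrier values was not tested, and fewer cells of a type and less RNA per cell cannot be told apart in bulk samples.

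The share of solute carriers with a listed peak lay near that of other genes. Peaks were listed for 36.4% of the solute carriers and for 35.5% of all 23154 protein-coding genes of RefSeq. At the edge of the selection, 31 members had 1 peak over both lists together and 215 solute carriers had none. By class, the share with a peak was 80% for the 5 carriers of iron, manganese and copper, 50% for the 24 zinc carriers, 46.9% for the 49 mitochondrial carriers of family Slc25, 40% for the 5 carriers of family Slc35 that the rule takes, 36.4% for the 55 carriers of inorganic ions, 31.8% for the 66 carriers of amino acids and related solutes, 27.3% for the 33 sugar carriers and 31.7% for the other 101. Among the families without a listed peak in either group were Slc3 (2 genes), which supplies the heavy subunits of amino acid exchangers, and Slc5 (12 genes), with the sodium-coupled glucose carriers. The others were Slc13, Slc14, Slc18, Slc23, Slc28, Slc32, Slc34, Slc47, Slc48 and Slc50.

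The 123 genes carried 192 peaks in the Vector list, on 104 genes, and 171 peaks in the FTO list, on 105 genes. Fewer FTO peaks than Vector peaks were listed for 48 of them, or 39%, where the background over all genes was 41.4%. As many were listed for 44, or 35.8%, against a background of 37.4%. More were listed for 31, or 25.2%, against 21.2%. Peaks stood in the Vector list alone for 18 members (14.6%, background 16.4%) and in the FTO list alone for 19 (15.4%, background 9.57%). The shares of members with fewer, as many or more peaks thus lay near those of all genes, while the share listed in FTO alone was above its background. Most members listed in 1 group alone rested on a lone peak, 15 of the 18 in Vector and 16 of the 19 in FTO. When peaks under 200 bp were left out, the excess of Vector peaks among the members was gone, with 124 Vector peaks and 127 FTO peaks, and over all genes it was smaller too, at 1.088 times. Of the 105 members left at this length, fewer FTO peaks were listed for 25, or 23.8% (background 27.5%), and more for 28, or 26.7% (background 18.6%).

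Solute carriers had fewer peaks per gene than other genes, and their peaks were longer. A member had 1.85 Vector peaks and 1.63 FTO peaks on average, against 2.69 and 2.44 over all genes with a peak in that list. A lone peak was carried by 51% of the members in the Vector list and by 62.9% in the FTO list, against 42.3% and 47% of all genes. The median length of a member's peak was 377.5 bp in the Vector list and 521 bp in the FTO list, while over all peaks it was 203 bp and 228 bp. Peaks shorter than 200 bp made up 35.4% of the members' Vector peaks and 25.7% of their FTO peaks, against 49.1% and 44.2% over all peaks. When the longest peak of each gene was taken, so that genes with many peaks counted once, the medians lay closer, at 753.5 bp and 791 bp for the members and 655.5 bp and 704 bp for all genes.

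**Figure D1:**
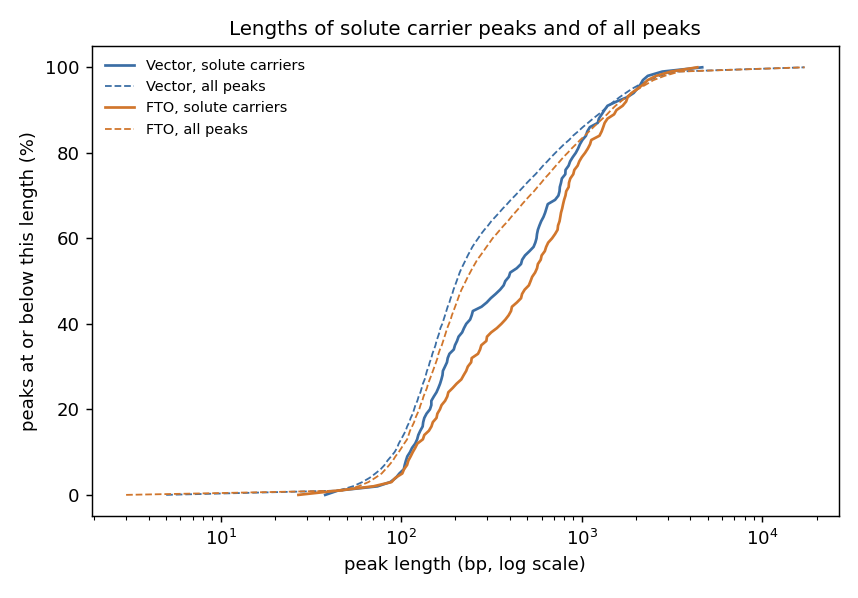
Share of peaks (%) at or below each length (bp, log scale), with full lines for the solute carrier peaks (192 Vector, 171 FTO) and broken lines for all peaks of each list. The full lines run to the right of the broken lines over most of the range, with medians of 377.5 and 521 bp against 203 and 228 bp.

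By transport class, fewer FTO peaks than Vector peaks were listed for sugars, inorganic ions, mitochondrial carriers and the carriers of iron, manganese and copper, and these 4 differences kept their direction when the FTO numbers were multiplied by 1.194 for the shorter list. Inorganic ion carriers had 47 Vector peaks and 36 FTO peaks, but 23 in each list among peaks of at least 200 bp. Mitochondrial carriers had 27 and 21, sugar carriers 15 and 10, and the carriers of iron, manganese and copper 8 and 4. Scaled, the FTO numbers of these 4 classes were 43, 25.1, 11.9 and 4.78. Carriers of amino acids and related solutes had 36 and 38 peaks, and the remaining families 41 and 44. Their scaled FTO numbers were 45.4 and 52.5, farther above Vector than those of the 4 classes lay below it. Over all members the Vector peaks outnumbered the FTO peaks 1.123 times, less than the 1.194 times of the whole lists. Zinc carriers had 16 and 15, a difference that turned when the FTO number was scaled to 17.9 and also when peaks under 200 bp were left out, 11 against 12. Slc35 had 2 and 3 peaks. The summed length of the members' peaks was 116208 bp in the Vector list and 119324 bp in the FTO list, with means of 605 and 698 bp, so that the list with fewer member peaks held the larger summed length.

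**Figure D2:**
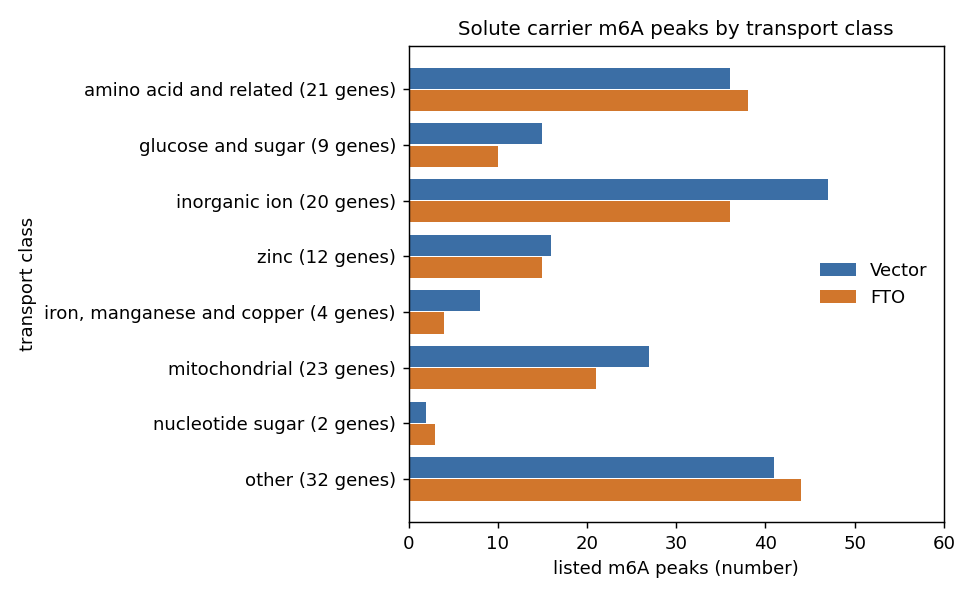
Number of listed m6A peaks (x axis) in each transport class (y axis, with its number of member genes) for Vector (blue) and FTO (orange), 1 list per group and no error bars. Ion carriers had 47 and 36 peaks (23 and 23 among peaks of at least 200 bp) and amino acid carriers 36 and 38, while the zinc difference of 16 and 15 turned when the FTO number was scaled for list size.

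Peak numbers differed by 2 or more between the lists for 17 members. At least 2 fewer FTO peaks were listed for 11 of them, or 8.94% of the members where 14.8% of all genes did so, and at least 2 more for 6, or 4.88% where 4.72% of all genes did so. All genes also had more peaks per gene than the members. Slc24a3, an exchanger of sodium for calcium and potassium, had 3 Vector peaks and 0 FTO peaks. Slc20a1, a sodium-coupled phosphate carrier, and Slc25a37 (mitoferrin 1), which brings iron into mitochondria, had 2 and 0 each. In the other direction, Slc1a3 (a glutamate and aspartate carrier) and Slc6a9 (the glycine carrier GlyT1) had 0 Vector peaks and 3 FTO peaks each.

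**Figure D3:**
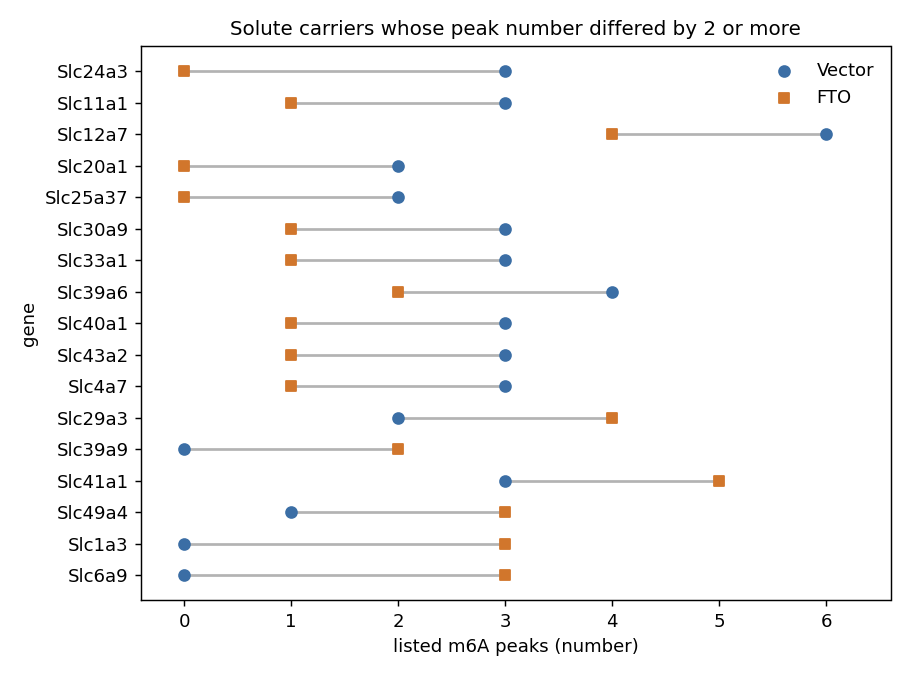
Number of listed m6A peaks (x axis) in Vector (blue circles) and FTO (orange squares) for the 17 solute carriers whose numbers differed by 2 or more, joined by a grey line for each gene (y axis). The largest differences were 3 peaks, for Slc24a3 (3 to 0) and for Slc1a3 and Slc6a9 (0 to 3).

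Among carriers of amino acids and related solutes, 21 genes had a peak, 6 with fewer FTO peaks, 10 with as many and 5 with more. The shares over all genes were 41.4% with fewer, 37.4% with as many and 21.2% with more. All lengths were the same in both lists for 7 of the 21, where 20.3% of all members had this. Slc1a5 (ASCT2), which brings glutamine into the cell, had a peak of 1104 bp in both lists. Its relative Slc1a4 (ASCT1) had peaks of 135 and 2322 bp in both. Slc7a5 (LAT1), the leucine exchanger, had Vector peaks of 106, 138 and 604 bp and FTO peaks of 138, 604 and 1912 bp. Thus a short peak was listed in Vector and a long peak in FTO beside a shared pair. Slc7a8 (LAT2) had a peak of 754 bp in both lists, and Slc43a1 (LAT3) a peak of 147 bp in both. Slc43a2 (LAT4) had Vector peaks of 201, 208 and 2119 bp, whereas its FTO peak was 93 bp, so its long peak was listed in Vector alone.

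Slc38a10 had more peaks than any other member, with 9 in the Vector list (103, 112, 125, 157, 177, 183, 359, 468 and 1293 bp) and 8 in the FTO list, which lacked the peak of 125 bp and held the other lengths without change. Slc38a1 (SNAT1), a plasma membrane carrier of glutamine, had a Vector peak of 76 bp and FTO peaks of 216 and 524 bp. Slc38a7, a lysosomal carrier, had a Vector peak of 199 bp and FTO peaks of 704 and 1676 bp. Both of these had more and longer peaks in the FTO list, with no length in common. For cationic amino acids, Slc7a1 (CAT1) had the longest peak of any member in each list, 4648 bp in Vector and 4364 bp in FTO, and Slc7a2 (CAT2) had an FTO peak of 164 bp alone. Slc7a7 had Vector peaks of 299 and 550 bp and an FTO peak of 550 bp.

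The glutamate carrier Slc1a3 had FTO peaks of 164, 234 and 278 bp and none in Vector. The glycine carrier Slc6a9 had FTO peaks of 103, 157 and 1285 bp and none in Vector. These 2 genes and Slc7a2 were the amino acid carriers listed in FTO alone, and the 18 genes of the class listed in Vector had 36 Vector peaks and 31 FTO peaks. Slc36a1 (PAT1), a proton-coupled carrier of proline, glycine and alanine, was listed in Vector alone, with a peak of 170 bp. The taurine carrier Slc6a6 had a peak of 216 bp and the creatine carrier Slc6a8 a peak of 849 bp in both lists. Slc6a12, which carries betaine and GABA, had Vector peaks of 171 and 572 bp and an FTO peak of 572 bp. Of the lysosomal peptide and histidine carriers, Slc15a3 had Vector peaks of 148, 169, 296 and 863 bp, of which the FTO list lacked that of 148 bp, and Slc15a4 had a peak of 572 bp in both. Slc43a3, a nucleobase carrier in this family, had peaks of 548 and 785 bp.

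For sugars, 9 genes had a peak, 6 of them with fewer FTO peaks, 2 with as many and 1 with more (background 41.4%, 37.4% and 21.2%). Within the facilitative glucose carrier family Slc2, the Vector list held 8 peaks on 5 genes and the FTO list 4 peaks on 3. Slc2a1 (GLUT1), the main glucose carrier of most proliferating cells, had Vector peaks of 230, 241 and 1087 bp and FTO peaks of 230 and 1087 bp. Slc2a8, an intracellular glucose carrier, and Slc2a9, a urate carrier, were listed in Vector alone with peaks of 759 and 2001 bp. Slc2a10 (GLUT10) had a peak of 2065 bp in Vector and of 902 bp in FTO. Slc2a13, a myo-inositol carrier, had Vector peaks of 160 and 2149 bp and an FTO peak of 2175 bp, so the short peak was listed in Vector only and the long ones differed little in length. The same pattern held for the sugar phosphate carriers, where Slc37a2 had Vector peaks of 205 and 2114 bp and an FTO peak of 2063 bp and Slc37a3 had 152 and 1372 bp and 1384 bp. Slc45a4 had peaks of 565, 632 and 1067 bp in both lists, the most of any member whose lengths did not differ, and Slc45a1 was listed in FTO alone with 737 bp.

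Among inorganic ion carriers, 20 genes had a peak, 9 with fewer FTO peaks, 9 with as many and 2 with more. Of the 20, 4 were listed in Vector alone and 0 in FTO alone. The background over all genes was 41.4%, 37.4% and 21.2%, with 16.4% in Vector alone and 9.57% in FTO alone. The cation and chloride cotransporters of family Slc12, which regulate cell volume, had 15 Vector peaks and 12 FTO peaks on 5 genes. Slc12a7 (KCC4) had Vector peaks of 108, 123, 170, 179, 196 and 564 bp and FTO peaks of 108, 123, 272 and 1795 bp. It had fewer peaks in FTO, and its longest peak there exceeded every Vector peak. Slc12a4 (KCC1) had Vector peaks of 95, 115 and 132 bp, and the FTO list lacked that of 95 bp. Slc12a2 (NKCC1), which brings chloride into the cell, had peaks of 120 and 811 bp in Vector and of 120 and 734 bp in FTO. Slc12a9 had peaks of 933 and 1279 bp.

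The sodium and calcium exchanger Slc8a1 (NCX1), a gene highly expressed in cardiomyocytes, had Vector peaks of 100, 107, 131, 377 and 1799 bp and FTO peaks of 69, 100, 107 and 1799 bp. The cardiomyocyte markers had 22 and 24 peaks, and their part in the Slc8a1 values was not tested. Slc24a3 had Vector peaks of 147, 161 and 181 bp and was at 0 in FTO, which leaves it with no peak of 200 bp in any list. For pH, the endosomal sodium and proton exchanger Slc9a9 had peaks of 1605 and 685 bp. The bicarbonate carrier Slc4a7 (NBCn1) had Vector peaks of 82, 147 and 241 bp and an FTO peak of 246 bp. The anion exchanger Slc4a2 (AE2) had peaks of 133 and 226 bp in Vector and of 226 and 245 bp in FTO, and Slc4a3 (AE3) had peaks of 181 and 278 bp in both.

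The phosphate carriers differed from each other, since Slc20a1 (PiT1) had Vector peaks of 559 and 614 bp and none in FTO, while Slc20a2 (PiT2) had peaks of 555 and 592 bp in both lists. For magnesium, Slc41a1 had Vector peaks of 397, 992 and 2268 bp and FTO peaks of 72, 147, 406, 992 and 2268 bp. The extra FTO peaks of Slc41a1 were short, and its number of peaks of 200 bp or more was the same in both lists. Slc41a2 had a peak of 715 bp in both, and Slc41a3 a peak of 65 bp in Vector alone. The sulfate carrier Slc26a1 had Vector peaks of 615 and 2756 bp and an FTO peak of 2756 bp. Slc26a8 had peaks of 579 and 865 bp, and Slc26a11 had a peak of 104 bp in Vector alone.

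Zinc is moved out of the cytosol by most members of family Slc30 and into it by family Slc39, and 12 genes of these families had a peak. Fewer FTO peaks were listed for 4, as many for 4 and more for 4 (background 41.4%, 37.4% and 21.2%). In the Slc39 family the Vector and FTO lists held 10 peaks each, of which 9 Vector peaks and 7 FTO peaks lay on the 4 genes listed in both groups. Slc39a6 (ZIP6) had Vector peaks of 106, 219, 378 and 753 bp and FTO peaks of 378 and 753 bp, and its partner Slc39a10 (ZIP10) had 121, 208 and 1023 bp in Vector and 189 and 1023 bp in FTO. The length of the longest peak was the same in both lists for each. Slc39a9 was listed in FTO alone, with peaks of 201 and 433 bp, and so was Slc39a11 with a peak of 119 bp, while Slc39a8 (ZIP8) had a peak of 91 bp in Vector alone. Slc39a3 had a peak of 3196 bp in both lists, the longest of the zinc carriers, and a second FTO peak of 332 bp. Slc39a7 (ZIP7), of the endoplasmic reticulum, had a peak of 793 bp in both.

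In family Slc30 none of the peaks had the same length in both lists. Slc30a1 (ZnT1), the exporter of the plasma membrane, had a peak of 1233 bp in Vector and of 791 bp in FTO. Slc30a4 had peaks of 517 and 657 bp, and Slc30a6 had 905 and 848 bp. Slc30a9 had Vector peaks of 166, 168 and 246 bp and an FTO peak of 518 bp, so the lower number came with a longer peak. Slc30a7 had a peak of 150 bp in FTO alone.

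For the other metals, 4 of 5 carriers had a peak, and the iron carriers differed from the copper carriers in peak number. Slc40a1 (ferroportin), which exports iron, had Vector peaks of 246, 334 and 639 bp and an FTO peak of 246 bp. Slc11a1 (NRAMP1), a divalent metal carrier of macrophage phagosomes, had Vector peaks of 123, 246 and 486 bp and an FTO peak of 123 bp. For both, the length of the shortest Vector peak was listed in FTO and the longer ones were not. The macrophage marker Ptprc had 10 Vector peaks and 7 FTO peaks, Csf1r had 2 and 1, and Cd68 had 0 and 1, and the part of macrophage RNA in the values of Slc11a1 and Slc40a1 was not tested. The copper carriers Slc31a1 (CTR1) and Slc31a2 (CTR2) had 1 peak each, of 116 and 1393 bp, with the same length in both lists.

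**Figure D4:**
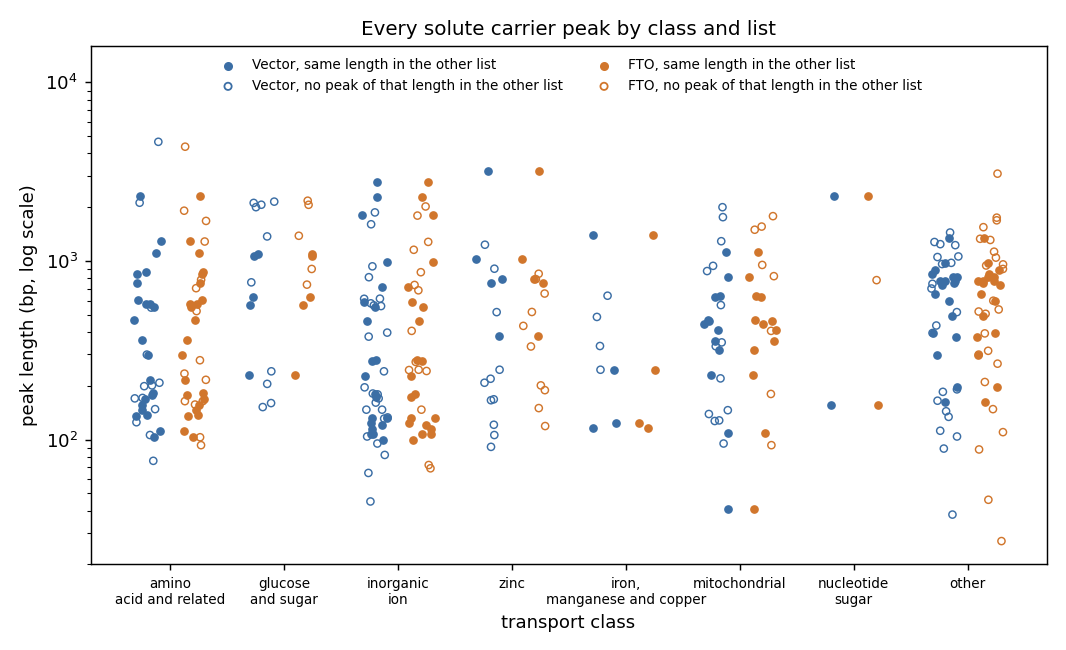
Length of each solute carrier peak (bp, log scale) by transport class, for Vector (blue) and FTO (orange), with filled points for peaks that had a peak of the same gene and length in the other list and open points for the others. Iron, manganese and copper carriers had 4 open Vector points and 0 open FTO points, and the longest points are those of Slc7a1 at 4648 and 4364 bp.

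Of the mitochondrial carriers of family Slc25, 23 had a peak, and this class had the most genes listed in 1 group alone. Fewer FTO peaks were listed for 11, as many for 6 and more for 6, with 8 genes in Vector alone and 4 in FTO alone. Over all genes these shares were 41.4%, 37.4% and 21.2%, with 16.4% in Vector alone and 9.57% in FTO alone. The aspartate and glutamate carriers Slc25a12 (aralar) and Slc25a13 (citrin) were listed in Vector alone, with peaks of 146 and 139 bp. Mitoferrin 1, Slc25a37, had Vector peaks of 350 and 939 bp and none in FTO, whereas mitoferrin 2, Slc25a28, had 229 and 817 bp in Vector and 229, 406 and 817 bp in FTO. The iron carriers of the inner membrane thus lay on opposite sides. Also in Vector alone were Slc25a46, a protein of the outer membrane that acts in mitochondrial fission, with 2000 bp, Slc25a43 with 1290 bp, Slc25a35 with 566 bp, Slc25a34 with 333 bp and Slc25a30 with 95 bp. In FTO alone were Slc25a27 (UCP4) with 1558 bp, the glutamate carrier Slc25a22 with 1496 bp, the coenzyme A carrier Slc25a42 with 822 bp and the glycine carrier Slc25a38 with 180 bp.

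The other mitochondrial carriers were listed in both groups. Slc25a26, which brings S-adenosylmethionine, the methyl donor of m6A, into mitochondria, had a peak of 316 bp in both lists. Slc25a51, the NAD carrier, had peaks of 41 and 109 bp in both, and Slc25a33, a pyrimidine nucleotide carrier, had 463 bp in both. Slc25a44, which carries branched-chain amino acids, had Vector peaks of 128, 412, 470 and 638 bp, and the FTO list lacked that of 128 bp. Slc25a4 (ANT1), the ADP and ATP exchanger of heart and muscle, had Vector peaks of 220 and 442 bp and an FTO peak of 442 bp. Slc25a24, which exchanges ATP-Mg for phosphate, had Vector peaks of 127 and 355 bp and an FTO peak of 355 bp. For these 3 genes the FTO list held all Vector lengths but the shortest. Slc25a25 had peaks of 1759 and 1782 bp, Slc25a2 had 878 and 950 bp, and the dicarboxylate carrier Slc25a10 had 1124 bp in both and a further 93 bp in FTO.

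Of the remaining families, the monocarboxylate carriers of family Slc16 had the most members, with 8 of 14 genes, each of them listed in both groups, and 15 Vector peaks against 12 FTO peaks. Slc16a1 (MCT1), which carries lactate and pyruvate, had Vector peaks of 134, 846 and 976 bp and FTO peaks of 148 and 846 bp. Slc16a3 (MCT4), the lactate exporter of glycolytic cells, had peaks of 768 and 894 bp in both lists and a further 27 bp in FTO. Slc16a7 (MCT2), a further carrier of pyruvate and lactate, had 813 and 1052 bp in Vector and 813 bp in FTO. Slc16a6 had peaks of 650 and 813 bp in both, and Slc16a14 a peak of 978 bp in both. Slc16a11 had 768 bp in both and Slc16a13 had 435 and 738 bp in Vector and 738 bp in FTO, but these 2 genes overlap each other in the annotation of GRCr8.

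The organic cation and anion carriers of family Slc22 had 3 Vector peaks and 7 FTO peaks on 5 genes. More FTO peaks were listed for 4 of them (background 21.2%) and as many for 1 (37.4%). Slc22a5 (OCTN2), which brings carnitine into heart and muscle cells, had a Vector peak of 701 bp and FTO peaks of 506 and 1331 bp. Slc22a17 had a peak of 492 bp in both lists and a further 599 bp in FTO. Slc22a4 (OCTN1) with 393 bp and Slc22a23 with 1689 bp were listed in FTO alone, and Slc22a15 had peaks of 1443 and 1546 bp. In the nucleoside carrier family Slc29, there were 3 Vector peaks and 6 FTO peaks. Slc29a3 (ENT3), of lysosomes, had Vector peaks of 89 and 163 bp and FTO peaks of 88, 163, 299 and 3083 bp, Slc29a1 (ENT1) had 535 bp in FTO alone, and Slc29a2 (ENT2) had 112 and 110 bp. The peak of 3083 bp was the longest among FTO peaks without a counterpart in Vector after that of Slc7a1.

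Fatty acid transport proteins of family Slc27 had 7 Vector peaks and 5 FTO peaks. Slc27a4 had 165, 395 and 961 bp in Vector and 210 and 943 bp in FTO, Slc27a1 had 395 and 1226 bp in Vector and 395 bp in FTO, and Slc27a3 had 298 and 768 bp in both. Slc33a1, which brings acetyl coenzyme A into the endoplasmic reticulum, had Vector peaks of 185, 191 and 1277 bp and an FTO peak of 1311 bp. Slc49a4 had a Vector peak of 517 bp and FTO peaks of 266, 521 and 957 bp, and its relative Slc49a3 had 1127 bp in FTO alone. The choline carriers differed in opposite directions, with 46 bp in FTO alone for Slc44a1 and 104 and 1341 bp in Vector and 1341 bp in FTO for Slc44a2. The reduced folate carrier Slc19a1 had 754 bp in both lists, Slc10a6 had 197 and 377 bp in both, and the vesicular nucleotide carrier Slc17a9 had 1060 and 1044 bp. Slc10a3 had 38 bp in Vector and 1748 bp in FTO. The riboflavin carrier Slc52a2, with 902 bp, and Slc66a3, with 314 bp, were listed in FTO alone, and the lysosomal carriers Slc46a3, with 745 bp, and Slc66a1, with 1242 bp, in Vector alone. In family Slc35, Slc35a4 had peaks of 157 and 2324 bp in both lists and Slc35a5 a peak of 781 bp in FTO alone.

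Peaks were then paired between the lists, 1 to 1, when gene and length were the same. For the members 92 peaks had such a partner. Without a partner were 100 Vector peaks, or 52.1% (95% Wilson interval 45% to 59%), and 79 FTO peaks, or 46.2% (38.9% to 53.7%). Over all genes the shares were 42.7% (42.1% to 43.4%) and 31.6% (31% to 32.3%), below the members' intervals. The intervals cover counting error only, and peaks of 1 gene are not independent. Peaks shorter than 200 bp lacked a partner in 61.8% of 68 member Vector peaks against 45.3% over all genes, and in 40.9% of 44 member FTO peaks against 27.3%. For peaks of 500 bp or more the shares were 47% and 50% for the members and 43.1% and 40.3% over all genes, and these overlap the members' intervals of 36.6% to 57.6% and 39.8% to 60.2%. Peaks whose ends moved by a few bases count as unpaired. With lengths within 10% accepted as equal, the members' shares were 41.7% (34.9% to 48.7%) and 34.5% (27.8% to 41.9%), and those over all genes 36.2% and 23.8%. At this tolerance the share over all genes lay inside the members' interval for Vector and below it for FTO.

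The unpaired peaks of the lists differed in length. The median was 243.5 bp for the 100 unpaired Vector peaks, of which 42% were shorter than 200 bp, and 535 bp for the 79 unpaired FTO peaks, of which 22.8% were. The paired peaks had a median of 469 bp. Over all genes the order was alike, with 52% of the unpaired Vector peaks, 38.2% of the unpaired FTO peaks and 47% of the paired peaks shorter than 200 bp, against 42%, 22.8% and 28.3% for the members.

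By gene, all lengths were the same in both lists for 25 members (20.3%, background 21%). Of these, 16 had 1 peak and 9 had more, led by Slc45a4. For 18 members every FTO peak was among the Vector peaks and the Vector list held more (14.6% against 14.9% of all genes), as for Slc38a10, Slc15a3 and Slc39a6. The reverse held for 5 members (4.07% against 7.11%), such as Slc16a3 and Slc25a28. Some lengths were shared for 11 members (8.94% against 17.4%), and no length was shared for 27 members listed in both groups (22% against 13.6%). These states depend on the number of peaks per gene, since a gene with 1 peak in each list cannot share some lengths only. Members had fewer peaks per gene, 1.85 in Vector and 1.63 in FTO against 2.69 and 2.44 over all genes, and the shares were not adjusted for this.

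Members with 1 peak in each list allow the lengths to be set side by side without a choice of partner. There were 31 of them. The length was the same for 16 (51.6%, against 61.7% of 1873 such genes over the whole lists), longer in FTO for 8 (25.8% against 21.8%) and shorter for 7 (22.6% against 16.6%). Of the 15 that differed, 7 differed by no more than 10%, from 2 bp in Slc29a2 to 284 bp in Slc7a1. Slc2a10 was shorter in FTO by 1163 bp, Slc9a9 by 920 bp and Slc30a1 by 442 bp, while Slc10a3 was longer by 1710 bp and Slc12a9 by 346 bp. The peaks of Slc10a3 are so unlike in length that they may not lie at the same place, which was not determined.

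**Figure D5:**
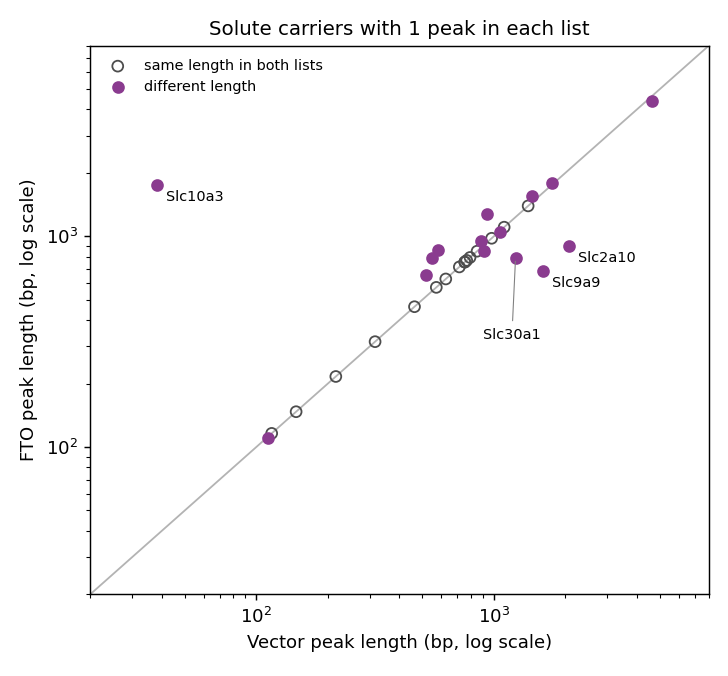
Peak length in Vector (x axis) and in FTO (y axis), both in bp on log scales, for the 31 solute carriers with 1 peak in each list, and the grey line marks equal lengths. The 16 open points lie on the line, and Slc10a3 (38 and 1748 bp), Slc2a10 (2065 and 902 bp), Slc9a9 (1605 and 685 bp) and Slc30a1 (1233 and 791 bp) lie farthest from it.

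Peaks of a member fell on 1 transcript for 100 of 104 members in the Vector list and for 100 of 105 in the FTO list. Of the 123 members, 31 overlap another protein-coding gene in the annotation of GRCr8, among them Slc6a9, Slc40a1, Slc15a3 and Slc26a1. Whether the peaks were assigned by strand is not given in the sources used here, so that peaks of these genes may belong to a neighbour.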

How the data were processed

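The labels tie each deposited list to the m6A-IP and input libraries of 1 group, and the authors' unit is the length in bp of each peak, which is another kind of value than a count or a signal and was not normalized. The submitters' processing notes name cutadapt 1.9.3, HISAT2 2.0.4 and the build rn6, and the peak names carry the prefix MACS. Peak settings and the threshold are not given in the sources used here. Of the gene IDs, 7489 of 7723 (Vector) and 6920 of 7145 (FTO) matched the RefSeq table of GRCr8, from which only symbols, gene types and neighbours were taken. A total of 248 and 213 peaks had no gene ID, and a gene is its gene ID or, without one, its transcript. Classes were set by family number. Pairing was 1 to 1 by gene and length, and its code was checked on simulated lists with exact lengths. That check does not cover shifted peak ends or different peaks that happen to have equal lengths. Members, classes and alternatives were chosen with earlier results of these data known. The lists hold 1 value per peak for each group, so no tests were run. The rule for named genes gave values for members with the most peaks (10 of all members and 3 per class), the 5 longest peaks per list, a difference of 2 or more peaks, or peaks in 1 list alone, and the other members were added, apart from 4 that stay in the counts and whose own values are not reported here. Python 3.11.15, numpy 2.4.6, pandas 2.3.3, scipy 1.17.1 and matplotlib 3.10.9 were used.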

Additional observations from a re-analysis of the deposited data

How the results depend on the processing

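Of 73 values under the alternatives, 54 stayed within 1.5 times the count or within the 95% interval of the share or median, and 19 did not. Leaving out peaks under 200 bp gave 124 Vector peaks (127 FTO peaks), 25 members with fewer FTO peaks, and medians of 644 bp (Vector) and 738 bp (FTO). That setting gave 20 and 24 peaks for amino acid carriers, 23 and 23 for inorganic ion carriers, 2 FTO peaks for the carriers of iron, manganese and copper and 1 Vector peak for Slc35. Without the families of several substrates, the remaining families had 26 Vector peaks. The shares without a partner were 41.7% (Vector) and 34.5% (FTO) with lengths within 10% and 31.2% and 22.8% with any peak of the same gene. Among alternatives chosen after seeing the data, lengths within 50% gave 36.5% and 28.7%, and the longest peak of each member gave medians of 754 and 791 bp. The fewer or longer peaks kept follow from how these settings are built. No paired analysis was possible because there is a single list in each group, made from 1 pair of libraries, and for the same reason no library could be left out. The unknown depth limits every difference in peak number.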

Other observations

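Other carriers with names of a different form were listed for 16 genes, 13 of family Slc35 with a letter other than a, which bring nucleotide sugars into the Golgi and endoplasmic reticulum or are of unknown substrate, and 3 organic anion carriers of the Slco genes. They had 28 Vector peaks and 26 FTO peaks, 14 of them with the same length in both lists. The FTO number was lower for 3 genes, equal for 11 and higher for 2 (background 41.4%, 37.4% and 21.2%). The share with equal numbers was thus above its background in this small set. Slc35b2, a carrier of the sulfate donor PAPS, had a peak of 1387 bp in both lists. Slc35c1, the GDP-fucose carrier, had Vector peaks of 148, 1031 and 1981 bp and FTO peaks of 1031 and 2006 bp. Slc35f6 had Vector peaks of 156, 213 and 2256 bp and an FTO peak of 2256 bp. Slco4a1 had 4 peaks in each list, of 80, 122, 155 and 897 bp in Vector and of 91, 155, 663 and 897 bp in FTO. The prostaglandin carrier Slco2a1 had a Vector peak of 1659 bp and FTO peaks of 294 and 2005 bp.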
